A study of Mus musculus with 6 samples.

Results

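The 40 genes described here encode the secreted and membrane-bound proteases that cut extracellular matrix and their tissue inhibitors. They comprise 18 matrix metalloproteinases (MMPs), 18 ADAMTS proteases (a disintegrin and metalloproteinase with thrombospondin motifs) and 4 tissue inhibitors of metalloproteinases (TIMPs). The rule names gene families and uses no measured value, although the members were chosen with earlier results of these data known. All 40 were found by NCBI Gene identifier among the 18099 genes of the table. They were followed in RNA from Achilles tendon repair tissue of neonatal mice taken 7 days after transection. The question asked was how loss of AMPKα1 in myeloid cells alters the repair tissue. The *LysM-Cre; Ampkα1 fl/fl* group (cKO below, 3 libraries) carried floxed *Prkaa1*, the gene of AMPKα1, together with a Cre recombinase driven by the *Lyz2* (lysozyme M) locus, a driver used to target macrophages, neutrophils and other myeloid cells. The control group (3 libraries) consisted of littermates, given in the study's text as floxed mice without Cre, so that the presence of Cre and the deletion cannot be told apart. All 6 mice were transected, and no uninjured tendon was analysed here. The design counts 3 mice a group and does not say whether any library pools animals.

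MMPs are made as inactive zymogens and, between them, cut collagens, gelatin, fibronectin, elastin and proteoglycan core proteins. The membrane-type enzyme MMP14 cleaves fibrillar collagen at the cell surface and also activates proMMP2, for which it uses TIMP2 as a docking partner, so TIMP2 is at once an inhibitor and a part of the activation complex. ADAMTS proteases cut more selectively. Some trim the amino-terminal propeptides from procollagen, others clip aggrecan and versican, and others act on microfibril proteins or have few known substrates. In tendon these enzymes take part in turnover and in remodelling of the provisional matrix after injury.

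The start-proximal sequences of some members are shown first, so that the windows of abundant and of barely read genes can be compared. Upstream windows of 250 bases were taken from the RefSeq promoter table (GRCm38.p6), which held 26 of the 40 members. *Mmp14* and *Mmp11* were chosen as MMPs with higher values in cKO, *Adamts14* as an ADAMTS with lower values, and *Mmp3* and *Mmp13* as inducible MMPs that were barely read here. Each is written 5′ to 3′ on the gene's strand and ends at the base before the annotated start. Capitals mark exact matches, on either strand, to an AP-1 element (TGANTCA), a GC box (GGGCGG) or a TATA box (TATAAA), and overlapping matches were counted separately.
Mmp14, chr14:54431348-54431597, plus strand: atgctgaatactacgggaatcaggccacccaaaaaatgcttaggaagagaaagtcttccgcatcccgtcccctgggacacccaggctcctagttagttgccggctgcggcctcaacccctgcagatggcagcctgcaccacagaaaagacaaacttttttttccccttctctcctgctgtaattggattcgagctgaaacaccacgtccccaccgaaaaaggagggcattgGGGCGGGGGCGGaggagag
Mmp11, chr10:75932503-75932752, minus strand: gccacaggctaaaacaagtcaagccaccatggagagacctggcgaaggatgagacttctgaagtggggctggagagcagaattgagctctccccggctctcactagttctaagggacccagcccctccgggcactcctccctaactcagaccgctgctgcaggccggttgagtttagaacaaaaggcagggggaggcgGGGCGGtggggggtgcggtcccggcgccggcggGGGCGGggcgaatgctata
Adamts14, chr10:61273420-61273669, minus strand: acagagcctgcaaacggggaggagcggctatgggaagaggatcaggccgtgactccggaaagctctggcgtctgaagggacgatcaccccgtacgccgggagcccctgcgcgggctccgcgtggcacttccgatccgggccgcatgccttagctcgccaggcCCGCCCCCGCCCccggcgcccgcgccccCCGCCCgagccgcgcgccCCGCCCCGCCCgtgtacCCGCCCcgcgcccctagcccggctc
Mmp3, chr9:7445572-7445821, plus strand: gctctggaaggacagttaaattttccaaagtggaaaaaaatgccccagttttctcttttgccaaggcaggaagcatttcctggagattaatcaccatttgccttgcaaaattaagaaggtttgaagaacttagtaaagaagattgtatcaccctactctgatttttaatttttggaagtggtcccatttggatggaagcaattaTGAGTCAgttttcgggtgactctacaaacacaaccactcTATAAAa
Mmp13, chr9:7272264-7272513, plus strand: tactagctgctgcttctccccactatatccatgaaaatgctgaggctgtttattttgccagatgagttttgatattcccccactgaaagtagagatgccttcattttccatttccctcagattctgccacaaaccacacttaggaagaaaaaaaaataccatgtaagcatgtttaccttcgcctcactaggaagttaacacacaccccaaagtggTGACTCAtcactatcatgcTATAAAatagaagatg
The *Mmp14* window held 2 GC boxes, the first beginning 19 bases before the start, and that of *Mmp11* also held 2. *Adamts14* had 6 GC boxes within its last 88 bases. *Mmp3* and *Mmp13* had no GC box. They had an AP-1 match beginning 46 and 35 bases before the start, followed by a TATA box. AP-1 is the *Fos* and *Jun* dimer through which inflammatory cytokines are known to act on several MMP genes. Among 28 member windows (a few genes have more than 1 start), 4 held an AP-1 match, all of them in the group of 6 MMP genes (*Mmp13*, *Mmp12*, *Mmp3*, *Mmp10*, *Mmp8* and *Mmp27*) that lie together within 309372 bases of chromosome 9. Of all 32851 RefSeq windows, 6.75% held AP-1, 32.7% a GC box, 12.4% a TATA box and 1.55% a CRE (TGACGTCA). The GC box was found in 16 of the 28 member windows, the TATA box in 4 and the CRE in 0. A match describes letters only, and binding was not measured.

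The libraries held between 18076805 and 19479887 estimated reads. *Lyz2*, into which LysM-Cre is inserted, was read at between 390 and 425 CPM (reads scaled to a common library size, with the TMM correction for composition) in the controls and at between 0.432 and 0.811 CPM in cKO. The cKO mice thus differed from the controls in *Lyz2* RNA as well. *Prkaa1* itself was read at between 37.6 and 39.2 CPM in the controls and between 32.6 and 40.6 CPM in cKO. Its value is a sum over the whole gene in tissue of many cell types, so it does not check a deletion of part of the gene in myeloid cells. All 6 tendon markers were read, with a summed level of 7399 to 8193 CPM in controls and 7512 to 8780 CPM in cKO. The markers of other tissues differed between libraries, and their part in the results below was not tested except where a value is given. Calls among them are from edgeR's quasi-likelihood test over all genes, with DESeq2 beside it where it differed. Of all genes tested edgeR called 0.898% (0.33% with blocking on the replicate number) and DESeq2 4.78%. Summed over 12 genes, skeletal muscle markers ranged from 184 to 3085 CPM in controls and from 1049 to 8991 CPM in cKO. All 12 had a higher estimate in cKO, beside 49.4% of all genes, with a median log2 difference of 1.81. None of them passed in either tool or had an unadjusted p under 0.05 in edgeR's main fit. In DESeq2 *Myh2* had an unadjusted p of 0.0423. With edgeR blocked on the replicate number the unadjusted p of the 12 lay between 0.00225 and 0.0413. The 9 macrophage markers summed to 973 to 1014 CPM in controls and to 624 to 819 CPM in cKO without overlap. Their estimates were mixed, 6 lower and 3 higher. At an unadjusted p under 0.05 stood 4 lower and 1 higher (*Mertk*), against 8.55% and 5.97% of all genes. None passed in edgeR and 3 did in DESeq2. For 7 erythrocyte genes the sums were 1997 to 2973 CPM against 676 to 983 CPM, with 6 called lower, of which 1 (*Hbb-bs*, whose reads a near-identical copy may share) kept the call after blocking on the replicate number. Osteoclast markers (8 genes, 4 tested, none called in edgeR and *Ctsk* in DESeq2) summed to 453 to 485 CPM against 522 to 579 CPM, mostly from *Ctsk*. Neutrophil markers (11 genes, 7 tested, none called in either tool or at an unadjusted p under 0.05) summed to 10.9 to 50.1 CPM against 12.6 to 53.3 CPM. The sums of the 10 cartilage genes, of which edgeR called *Acan* and DESeq2 called 4, overlapped between the groups, but control 2 alone had 2090 CPM of *Col2a1* against at most 364 CPM elsewhere. Of the 7 cartilage genes tested, 4 stood higher and 2 lower at an unadjusted p under 0.05 (5.97% and 8.55% of all genes). The 8 bone genes summed to 87.3 to 130 CPM against 128 to 157 CPM, mostly from *Spp1* (74.5 to 113 CPM against 124 to 154 CPM). The other 7 all had lower estimates in cKO, and 6 of the 8 were lower without overlap (11.4% of all genes). At an unadjusted p under 0.05 stood 7 of the 8, 6 lower and 1 higher (8.55% and 5.97% of all genes). None was called in edgeR and 7 were in DESeq2. The 7 skin genes (6 tested, none called in either tool or at an unadjusted p under 0.05) ranged from 10.6 to 27.9 CPM in controls and from 2.76 to 73.0 CPM in cKO. No marker on these lists was at 0 in all 6 libraries.

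Levels between genes were compared in the authors' TPM (a share of transcripts, adjusted for transcript length), summed over the transcripts of each gene. Within the 40 genes, 3 held most of the summed TPM. *Mmp2*, *Timp2* and *Mmp14* had mean TPM of 1944, 1490 and 1477 over the 6 libraries, and together made up between 77.6% and 84.3% of the summed TPM of the 40 genes in each library. *Timp1* came next at 227 TPM. The ranges of *Timp2* and *Mmp14* overlapped (1307 to 1786 and 1209 to 1804 TPM), as did those of *Timp1* (174 to 290 TPM) and *Mmp23* (170 to 203 TPM). *Timp3* had 143 TPM, *Adamts2* 119 TPM, *Adamts10* 75.0 TPM, *Mmp11* 70.2 TPM and *Adamts1* 38.8 TPM. The MMPs as a whole took 59.3% to 65.0% of the members' TPM, the TIMPs 29.0% to 31.9% and the 18 ADAMTS genes 6.01% to 8.84%.

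**Figure D1:**
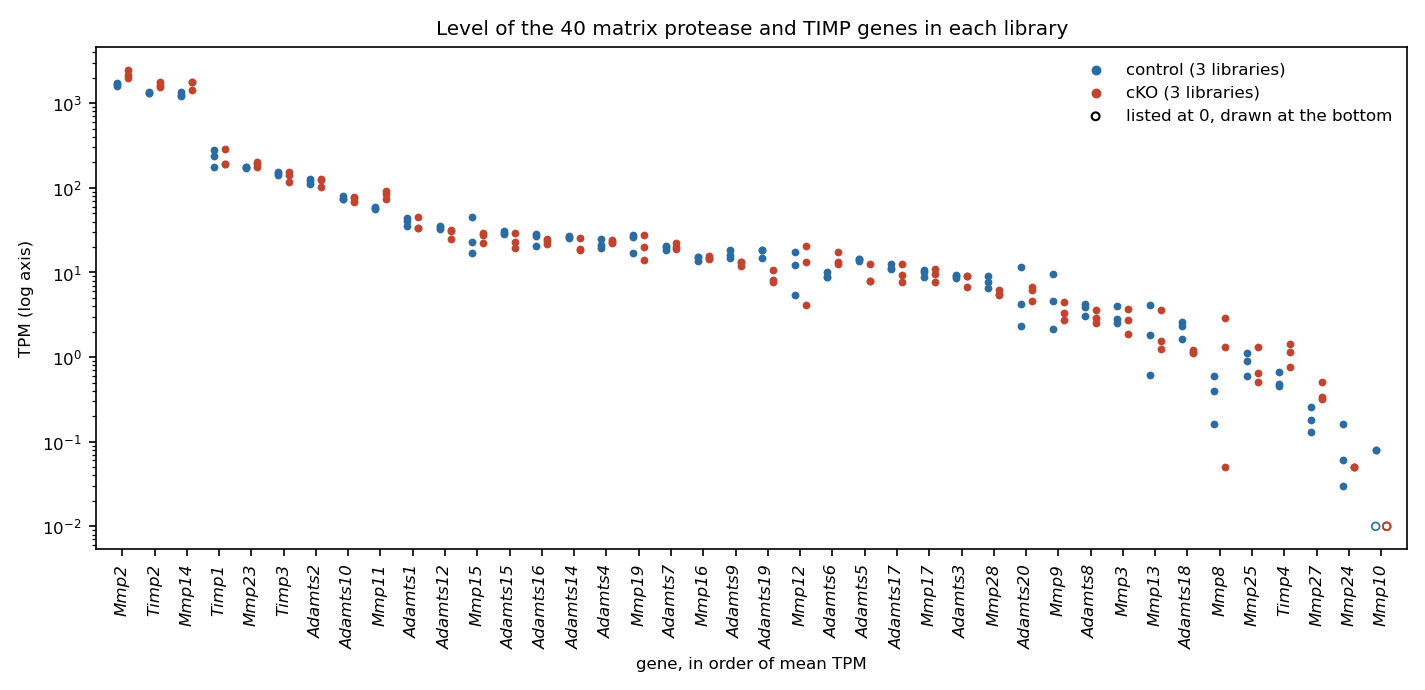
The level of each of the 40 genes in each library, in the authors' TPM on a log axis, with genes ordered by their mean. Mmp2, Timp2 and Mmp14 lie above 1000 TPM in all 6 libraries and the next gene, Timp1, has a mean of 227 TPM; open circles are libraries in which Mmp10 is listed at 0.

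Several MMPs of chromosome 9 were read at low levels, while *Mmp12* of the same cluster had 12.1 TPM, near the middle of the order. The neutrophil collagenase *Mmp8* had a mean of 0.908 TPM, the collagenase *Mmp13* 2.16 TPM and the stromelysin *Mmp3* 2.93 TPM. *Mmp10*, *Mmp24* and *Mmp27* were too low to be tested. *Mmp10* had 1 read in each of control 1 and control 2 and 0 elsewhere. *Mmp24* had 1 to 6 reads a library, and *Mmp27* 2 to 4 reads in controls against 5 to 9 in cKO. Of the remaining genes of these families, *Mmp1b* and *Mmp7* had 1 read each in all 6 libraries together, *Mmp21* had 0 (a count of 0 allows up to 3 reads per library, counting error only), and *Adamts13*, which cuts von Willebrand factor in plasma, had a log2 difference of -0.54 ± 0.32 (SE) that did not pass the test (adjusted p = 0.502).

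Members were compared between the groups by edgeR's quasi-likelihood test, fitted over 14261 genes, with p-values adjusted over all of them. One member passed. *Adamts19* fell about 1.98-fold in cKO, and it was 1 of 128 genes called in the whole table (0.898%). At an unadjusted p under 0.05 stood 14 of the 37 members tested, 6 higher and 8 lower in cKO. This is 16.2% and 21.6% of the members, against 5.97% and 8.55% of all genes tested. The groups separated in as many genes. In 6 of the members tested every cKO library was above every control library (8.94% of all genes), and in 8 every cKO library was below (11.4% of all genes). With 3 libraries against 3 the exact two-sided permutation test cannot give a p below 0.1, and it gave 0.1 for each of these 14. In DESeq2 9 members passed (*Mmp2*, *Mmp11*, *Mmp14*, *Adamts5*, *Adamts6*, *Adamts9*, *Adamts18*, *Adamts19* and *Timp2*), beside 4.78% of the genes tested. The median log2 difference was -0.04 over the 15 MMPs tested, -0.18 over the 18 ADAMTS genes and 0.11 over the TIMPs, and it was -0.0020 over all genes. Of all genes tested 49.4% had a higher estimate in cKO. The tissue was sequenced whole, so fewer cells of a type and less RNA per cell cannot be told apart for any gene below.

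**Figure D2:**
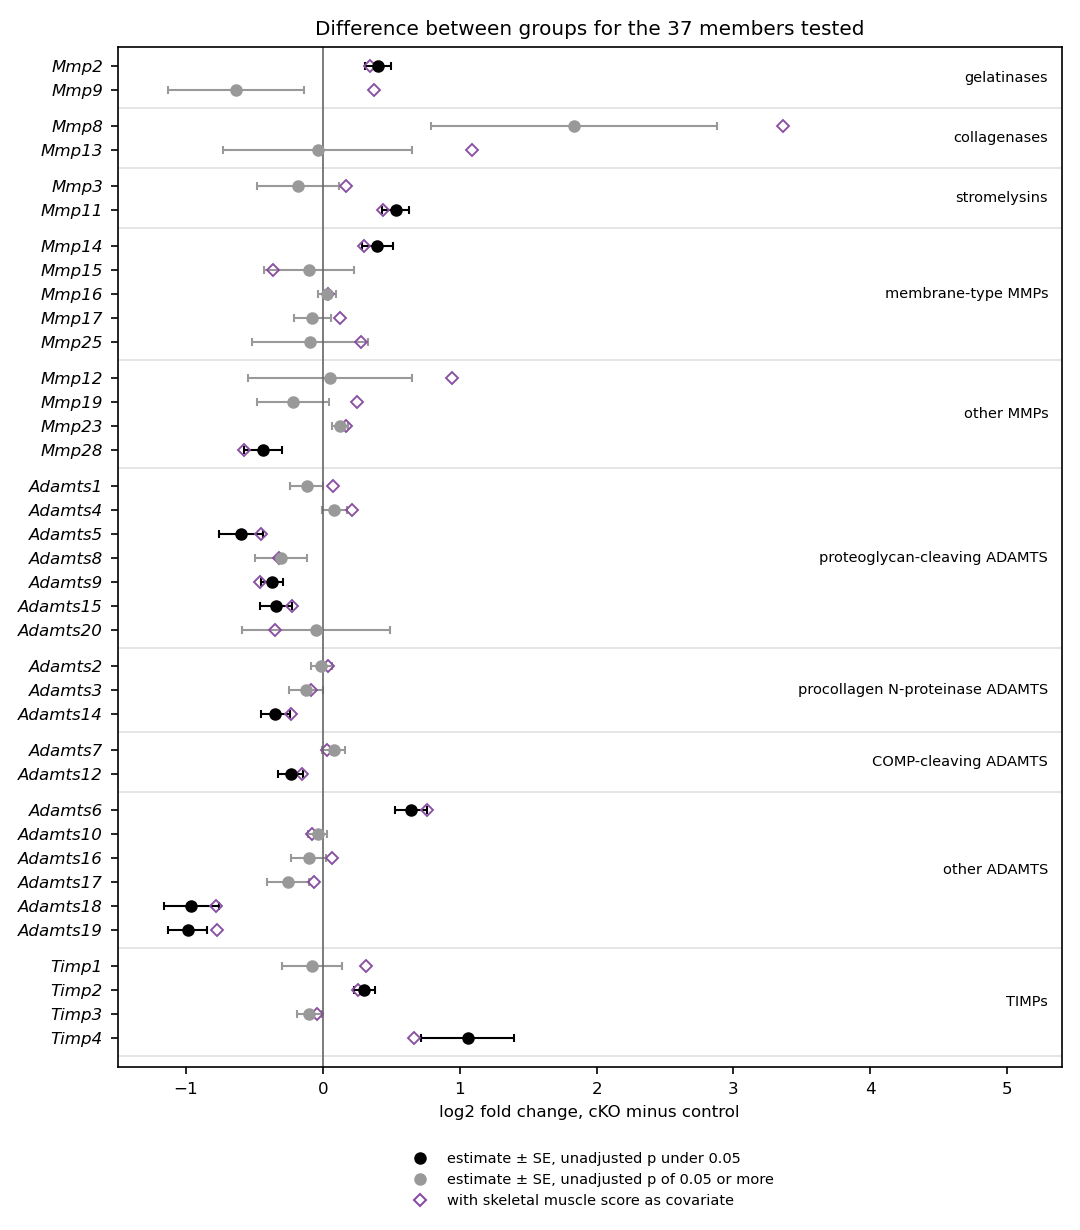
The log2 fold change (cKO minus control) of the 37 members tested, with its SE, grouped by subfamily; black points have an unadjusted p under 0.05, and diamonds give the estimate with the skeletal muscle score added to the model. Of the 18 ADAMTS genes, 15 lie to the left of 0, beside 7211 of all 14261 genes tested. Mmp2, Mmp14, Mmp11, Timp2 and Adamts6 lie to the right of 0 with and without the score.

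The genes of the MMP2 activation complex were the most abundant members, and each was higher in every cKO library than in any control. *Mmp2* (gelatinase A, chr8:92827290-92853421 by RefSeq, GRCm38.p6), which degrades denatured collagen and basement membrane, was read at 2377, 2260 and 2309 CPM in control 1, 2 and 3 and at 3449, 2652 and 3087 CPM in cKO 1, 2 and 3. The means were 2315 ± 59.1 and 3063 ± 399 CPM (SD, n = 3 each). The log2 difference was 0.40 ± 0.10 (SE) with an adjusted p of 0.126. In cKO the values were more spread out than in the controls, and cKO 2 lay nearest to them.

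*Mmp14* (MT1-MMP, chr14:54431598-54442456), the activator, had 2326, 2175 and 2194 CPM in controls and 3159, 2427 and 3232 CPM in cKO. Its log2 difference was 0.40 ± 0.11 with an adjusted p of 0.171. *Timp2* (chr11:118301061-118355411), inhibitor and docking partner, had 2218, 2230 and 2196 CPM in controls, which differed very little from each other. In cKO it had 2980, 2456 and 2757 CPM, a log2 difference of 0.30 ± 0.08 (adjusted p = 0.137). For each of these 3 genes cKO 2 gave the lowest value of its group. None passed in edgeR with all 6 libraries. Without cKO 2 all of them did, at adjusted p of 0.0355 for *Mmp2*, 0.0251 for *Mmp14* and 0.0430 for *Timp2*, in a fit where 276 genes were called in all. As cKO 2 lay nearest to the controls, leaving it out widens these differences. With any other library left out none of the 3 passed. Over all alternatives the highest edgeR adjusted p were 0.358, 0.469 and 0.388 in the same order. Of the cKO libraries cKO 2 also had the lowest summed skeletal muscle markers (1049 CPM, against 3352 and 8991 CPM). With the skeletal muscle score in the model the log2 differences were 0.35 for *Mmp2*, 0.30 for *Mmp14* and 0.26 for *Timp2*. Whether muscle content accounts for the position of cKO 2 was not tested.

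Ratios within a library showed how evenly the 3 genes differed. There were 1.28, 1.22 and 1.26 *Mmp2* transcripts (TPM) per *Timp2* transcript in controls and 1.39, 1.29 and 1.34 in cKO, so this ratio was higher in each cKO library. *Mmp14* per *Timp2* overlapped, with 0.925 to 0.995 in controls and 0.937 to 1.11 in cKO. The summed TPM of all MMPs over that of all TIMPs lay between 1.86 and 1.97 in controls and between 1.93 and 2.24 in cKO, and the groups overlapped here too. The read counts of *Mmp14* and *Timp2* each came from a single RefSeq transcript, and 98.9% of those of *Mmp2* came from one.

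*Mmp11* (stromelysin 3, chr10:75923221-75932502), which is cut to its active form by furin inside the cell and is typical of stroma under remodelling, showed a like difference at a lower level. It had 53.9, 58.5 and 55.1 CPM in controls and 88.6, 68.9 and 84.6 CPM in cKO. The log2 difference was 0.53 ± 0.10, and the adjusted p was 0.0731 (0.0207 without cKO 2, and up to 0.282 in the other alternatives). No cKO library reached down to the controls, and cKO 2 was again the nearest.

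No difference was detected in the inflammatory MMPs, whose values were few and widely spread. *Mmp9* (gelatinase B), known from neutrophils, macrophages and osteoclasts, had 13.7, 6.83 and 3.02 CPM in controls and 4.02, 6.22 and 4.92 CPM in cKO. The controls alone covered a more than 4-fold range and enclosed all 3 cKO values (log2 difference -0.63 ± 0.50, adjusted p = 0.628). *Mmp8* rested on 8, 12 and 3 reads in controls and 27, 56 and 1 reads in cKO, so its estimate of 1.83 ± 1.05, the widest of all members, said little (adjusted p = 0.487). *Mmp13* gave 92, 40 and 13 reads in controls and 82, 26 and 35 in cKO. Both groups were widely spread and overlapped. The direction of *Mmp9* turned with the skeletal muscle score in the model (0.38) and without control 1 (0.04).

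Among the remaining MMPs, *Mmp28* (epilysin), best known from epithelium and macrophages, was lower in each cKO library. It had 12.2, 10.8 and 14.5 CPM in controls and 10.1, 8.38 and 9.19 CPM in cKO (log2 difference -0.44 ± 0.14, adjusted p = 0.212). *Mmp23*, a short MMP without the usual carboxy-terminal domain, followed *Timp1* in level with 175, 177 and 170 TPM in controls and 192, 203 and 177 TPM in cKO. In CPM its groups overlapped at the edge (96.7 to 106 and 106 to 113 CPM; log2 difference 0.12 ± 0.06, adjusted p = 0.372). The other membrane-type genes *Mmp15*, *Mmp16*, *Mmp17* and *Mmp25* had log2 differences between -0.10 and 0.03 with overlapping groups. The metalloelastase *Mmp12*, the stromelysin *Mmp3* and *Mmp19* were equally without separation, at 0.05 ± 0.60, -0.18 ± 0.30 and -0.22 ± 0.26.

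**Figure D3:**
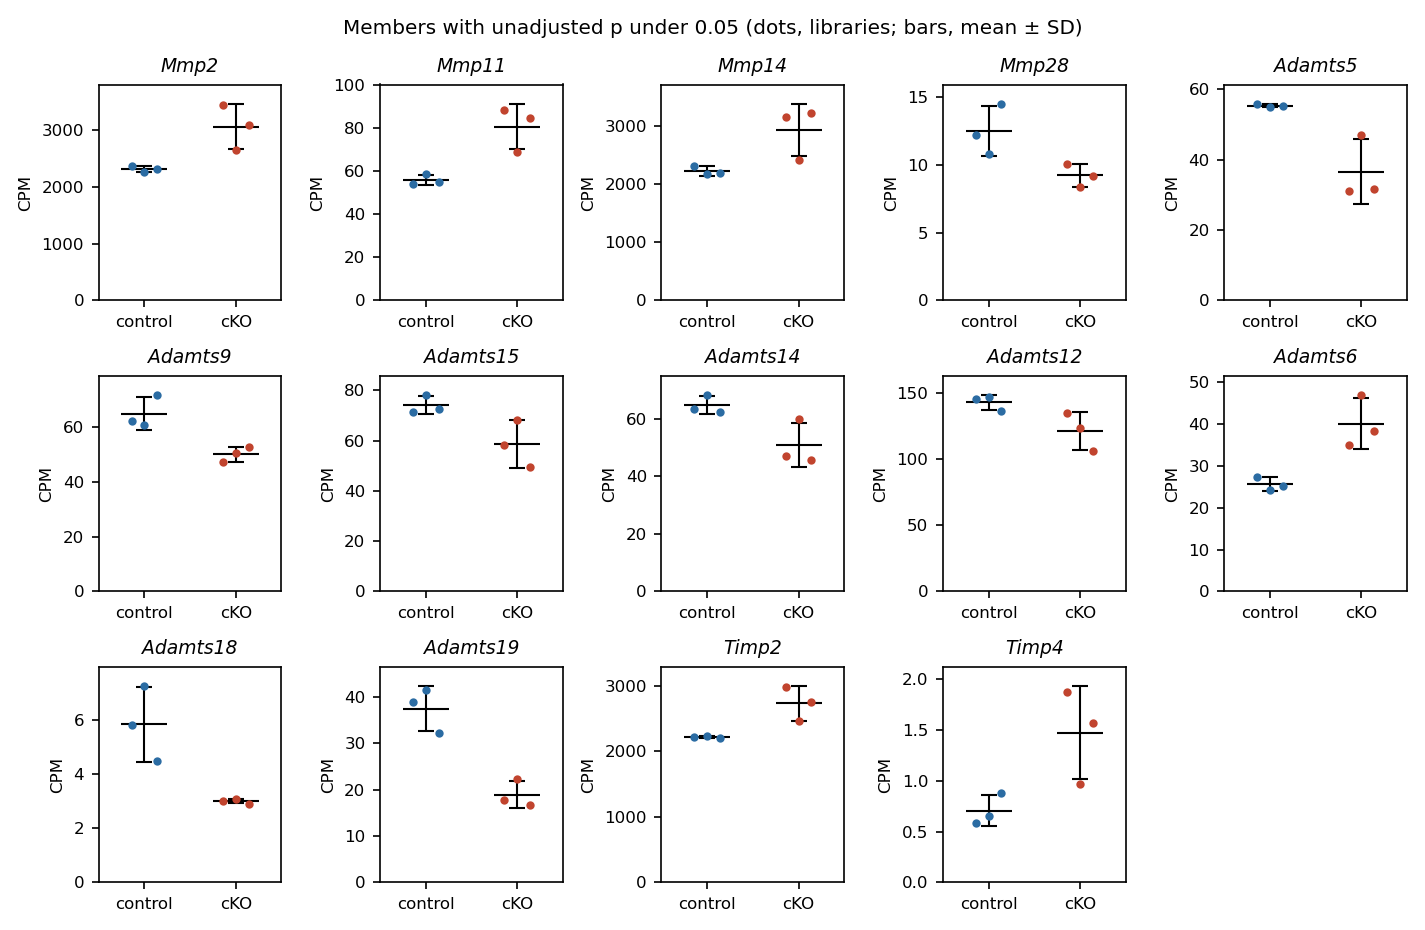
CPM in each library for the 14 members with an unadjusted p under 0.05; dots are libraries, and the bars give the mean and SD of 3. The groups do not overlap in any panel. For Mmp2, Mmp14, Mmp11, Timp2, Timp4, Adamts5, Adamts14, Adamts15, Adamts18 and Adamts19 cKO 2 (the middle cKO dot) lies nearest to the controls.

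The proteoglycan-cleaving ADAMTS genes leaned the other way. Of 7 genes, 6 had a lower estimate in cKO and 3 stood at an unadjusted p under 0.05, all lower, with a median log2 difference of -0.31. Of all 14261 genes tested, 7211 had a lower estimate and 8.55% stood lower at that unadjusted p. None passed in edgeR, and *Adamts5* and *Adamts9* passed in DESeq2. *Adamts5* (chr16:85858157-85901125), the main aggrecan-cutting enzyme of mouse cartilage, had 55.7, 54.8 and 55.3 CPM in controls, a spread of less than 1 CPM. In cKO it had 31.1, 47.1 and 31.5 CPM, all lower, with cKO 2 nearest to the controls. Its log2 difference was -0.60 ± 0.16, with an adjusted p of 0.156 (0.0102 without cKO 2, and up to 0.399 in the other alternatives).

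*Adamts9*, which cuts versican and aggrecan, had 62.3, 60.6 and 71.7 CPM in controls and 47.2, 50.5 and 52.6 CPM in cKO (log2 difference -0.37 ± 0.08, adjusted p = 0.0998). *Adamts15*, another versican-cutting enzyme, had 71.5, 78.1 and 72.8 CPM against 58.1, 68.2 and 49.3 CPM (log2 difference -0.34 ± 0.12, adjusted p = 0.238). In both genes every control library was above every cKO library. *Adamts1*, the most abundant of this subfamily and a neighbour of *Adamts5* on chromosome 16, did not share that pattern. Its 99.3, 96.7 and 81.5 CPM in controls overlapped the 77.5, 100.1 and 78.0 CPM in cKO (log2 difference -0.12 ± 0.12, adjusted p = 0.720). *Adamts4*, the aggrecanase known to be induced by inflammation, had 57.6 to 74.5 CPM in controls and 68.5 to 70.2 CPM in cKO (log2 difference 0.08 ± 0.09). *Adamts8* and *Adamts20* also overlapped. The summed TPM of the 7 genes was 128 to 136 in controls and 104 to 135 in cKO.

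Their substrates did not all differ in 1 direction. *Acan* (aggrecan) and *Dcn* (decorin) are named here because they were the called substrates, after their values were seen. *Acan* rose in cKO, from 896, 789 and 760 CPM to 1194, 1302 and 1220 CPM (log2 difference 0.60 ± 0.08, adjusted p = 0.0298, but 0.0634 after blocking on the replicate number). The gene also counts among the cartilage markers, of which *Col11a1*, *Sox9* and *Matn3* were likewise higher in each cKO library. *Cnmd*, *Col2a1* and *Col9a1* had lower estimates (-3.20, -1.89 and -0.15), *Cnmd* and *Col2a1* at an unadjusted p under 0.05. Their groups overlapped, and control 2 had the highest value of each. *Col10a1*, too low to be tested, had a lower mean in cKO. Versican, from *Vcan*, the large proteoglycan of provisional matrix, was read at 647, 663 and 481 CPM in controls and 339, 496 and 321 CPM in cKO, with control 3 and cKO 2 crossing (log2 difference -0.63 ± 0.20, adjusted p = 0.203). Per *Vcan* transcript there were 1.40, 1.11 and 1.53 *Acan* transcripts (TPM) in controls and 3.50, 2.47 and 3.74 in cKO. The number of *Acan* transcripts per *Adamts5* transcript was 14.6 to 17.1 in controls and 29.4 to 41.2 in cKO. This ratio had to separate the groups, because every cKO library was higher in *Acan* and lower in *Adamts5*. It therefore adds nothing to the values of the single genes.

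Of the procollagen N-proteinases, only *Adamts14* separated the groups. *Adamts2*, which removes the amino propeptide of type I procollagen and is the main one in skin and tendon, had 417, 375 and 408 CPM in controls and 419, 414 and 359 CPM in cKO. The groups overlapped throughout (log2 difference -0.01 ± 0.08, adjusted p = 0.972). *Adamts14*, with the same activity and a level of 23.7 TPM against 119 TPM, had 63.3, 68.1 and 62.4 CPM in controls and 47.0, 59.7 and 45.8 CPM in cKO (log2 difference -0.35 ± 0.11, adjusted p = 0.205). Its 3 cKO values were below all controls. *Adamts3* overlapped (-0.12 ± 0.12). Of the enzymes that cut cartilage oligomeric matrix protein, *Adamts12* had 145, 147 and 137 CPM in controls and 135, 123 and 106 CPM in cKO. The nearest libraries were less than 2 CPM apart (log2 difference -0.23 ± 0.09, adjusted p = 0.305), and in the unscaled reads the groups overlapped. *Adamts7* overlapped at 0.08 ± 0.09.

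The largest differences among the ADAMTS genes were in members with few established substrates or with roles in microfibrils. *Adamts19*, a gene known for heart valve development whose substrate is not established, had 38.8, 41.4 and 32.1 CPM in controls and 17.8, 22.2 and 16.6 CPM in cKO. Every cKO library lay below every control, with means of 37.4 ± 4.82 and 18.9 ± 2.95 CPM (SD, n = 3 each). The log2 difference was -0.99 ± 0.14 with an adjusted p of 0.0396. The call held when the model was blocked on the replicate number (adjusted p = 0.0242, where 0.33% of genes were called) and with the skeletal muscle score in the model (-0.78). It was lost in 5 of the 6 fits that left out a library (any control, cKO 1 or cKO 3), at adjusted p of 0.0529 to 0.182, and kept without cKO 2, where 7 members were called. The main RefSeq transcript, with 70.6% of the gene's reads, had 511, 578 and 418 reads in controls and 236, 280 and 193 in cKO.

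*Adamts18* had a similar estimate at a lower level. It had 5.82, 7.27 and 4.50 CPM in controls and 3.02, 3.08 and 2.92 CPM in cKO (log2 difference -0.96 ± 0.20, adjusted p = 0.0936). The cKO values were close together and below all controls. *Adamts6* (chr13:104286518-104496695), a relative of the fibrillin-associated *Adamts10*, was the 1 ADAMTS gene with higher values in every cKO library. Its values were 27.4, 24.3 and 25.1 CPM in controls and 35.0, 46.8 and 38.3 CPM in cKO (log2 difference 0.64 ± 0.12, adjusted p = 0.0686). Here cKO 2 was the library farthest from the controls. Both main transcripts of *Adamts6*, with 54.3% and 35.7% of its reads, were higher in each cKO library. *Adamts10* itself had 133, 139 and 147 CPM against 146, 133 and 129 CPM and did not separate (-0.04 ± 0.07, adjusted p = 0.858). *Adamts16* and *Adamts17* overlapped at -0.10 ± 0.13 and -0.25 ± 0.15.

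Among the 4 TIMPs, only *Timp2*, given above, and *Timp4* separated the groups. *Timp4*, known mainly from heart, muscle and fat, was the lowest of the 4 at a mean of 0.825 TPM. It had 11, 12 and 16 reads in controls and 36, 18 and 29 in cKO, a log2 difference of 1.06 ± 0.34 (adjusted p = 0.219). The gene lies within *Syn2*, which is on the opposite strand and had 24 to 39 reads a library, and whether the counting used strand is not given in the sources used here, so these few reads are uncertain. Muscle markers were higher in cKO by estimate in all 12 genes, and with the muscle score in the model the *Timp4* difference was 0.66.

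*Timp1*, the inducible secreted inhibitor, had 80.2, 68.8 and 48.6 CPM in controls and 53.1, 78.6 and 55.2 CPM in cKO. The groups overlapped (log2 difference -0.08 ± 0.22, adjusted p = 0.913), and the sign turned with the muscle score (0.32) and in 3 of the 6 fits without a library. *Timp3*, which is bound to matrix and also inhibits aggrecanases of the ADAMTS family, had 319, 322 and 332 CPM in controls and 317, 330 and 261 CPM in cKO. Only cKO 3 was below the controls by more than their spread (log2 difference -0.10 ± 0.09, adjusted p = 0.677).

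The other genes of the matrix-cleaving pathway were taken from 7 lists with 103 genes, of which 89 were tested. Of these 4 were called (4.49%, against 0.898% of all genes), *Acan* higher and *Dcn*, *Dpp4* and *Cma1* lower. At an unadjusted p under 0.05 stood 13 on the higher side and 16 on the lower (14.6% and 17.98%, against 5.97% and 8.55% of all genes). The median log2 difference was -0.0087. Of 17 cathepsins and other proteases tested, 2 stood higher and 4 lower at an unadjusted p under 0.05 (5.97% and 8.55% of all genes). The higher ones were the cathepsin genes *Ctsk* and *Ctsd*, which passed in DESeq2 but not in edgeR. The 3 with the largest estimates, all lower, are described here. *Cma1* and *Mcpt4* encode chymases of mast cell granules, which can cut fibronectin and activate MMP zymogens. *Cma1* fell from 127, 142 and 97.4 CPM to 54.5, 57.1 and 37.0 CPM (log2 difference -1.30 ± 0.20, adjusted p = 0.0431). *Mcpt4* went with it in every library, from 115, 136 and 96.0 CPM to 64.4, 62.2 and 38.8 CPM, but at an adjusted p of 0.0853 (0.0307 after blocking on the replicate number). *Dpp4*, a fibroblast surface peptidase, fell from 24.8, 27.3 and 27.7 CPM to 15.1, 15.5 and 16.4 CPM (log2 difference -0.76 ± 0.08, adjusted p = 0.0148). All 4 calls held without cKO 2. Without any control or without cKO 1 none of them did, and without cKO 3 *Dpp4* alone remained called. Mast cell markers as such were not on the lists.

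**Figure D4:**
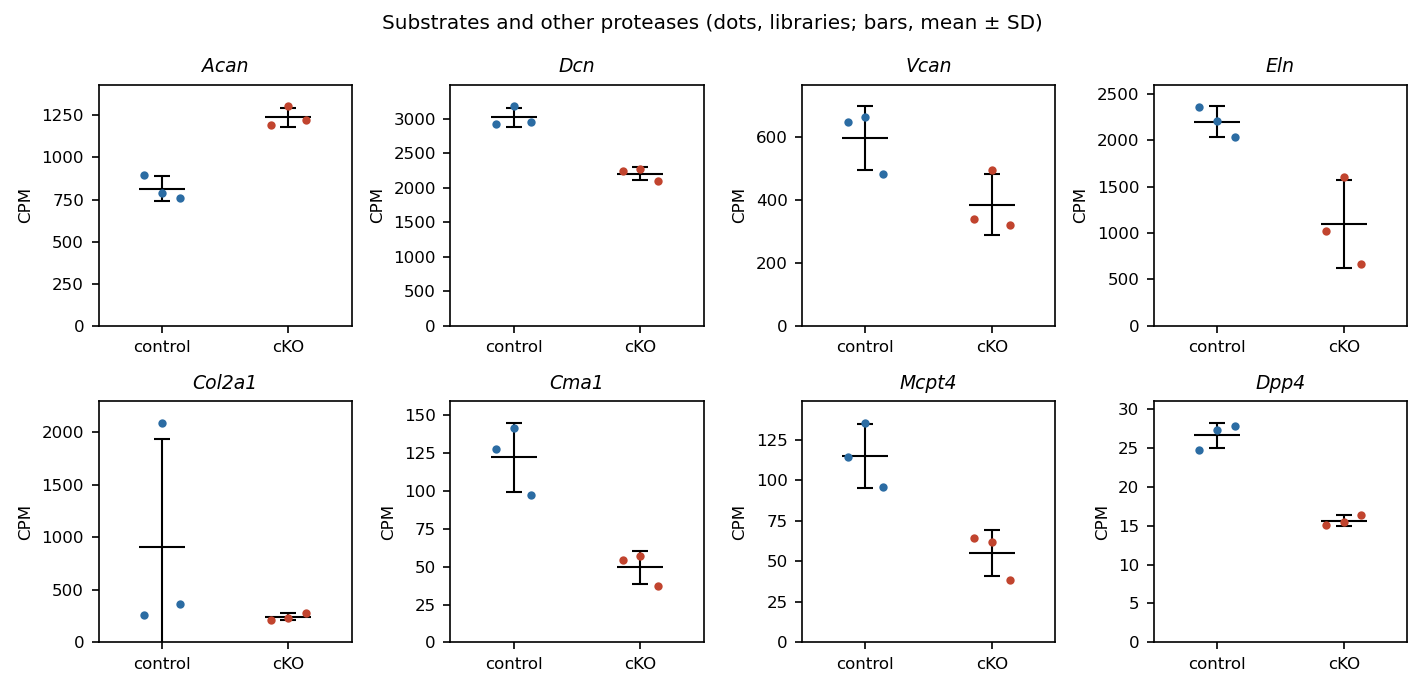
CPM in each library of the called substrates and proteases outside the 3 families (Acan, Dcn, Cma1, Dpp4) and of the genes with the largest estimates in their lists (Vcan, Eln, Col2a1, Mcpt4); dots are libraries, bars the mean and SD of 3, cut at 0 for Col2a1. Acan is higher and Dcn, Eln, Cma1, Mcpt4 and Dpp4 lower in each cKO library, and the single high Col2a1 value is control 2.

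*Dcn*, a small proteoglycan of collagen fibrils, fell from 2927, 3175 and 2951 CPM to 2247, 2264 and 2099 CPM (log2 difference -0.45 ± 0.06, adjusted p = 0.0301, but 0.0611 after blocking on the replicate number and 0.0883 with the skeletal muscle score in the model). *Eln* (elastin), a substrate of MMP12 and other elastases, had 2362, 2203 and 2035 CPM in controls and 1027, 1606 and 663 CPM in cKO. All cKO values were below the controls, but they varied so much among themselves that the difference of -1.0 ± 0.29 had an adjusted p of 0.181. Of 20 substrates tested 10 stood at an unadjusted p under 0.05, 4 higher and 6 lower (5.97% and 8.55% of all genes). The estimate of *Col2a1* (-1.89 ± 0.76, adjusted p = 0.316) rested on control 2.

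In the plasminogen system, the proteolytic cascade that activates several MMPs, 2 of 7 genes tested stood at an unadjusted p under 0.05, on the lower side (8.55% of all genes). None was called in edgeR. *Plau* (urokinase) had 40.3, 39.3 and 33.0 CPM in controls and 26.1, 30.3 and 25.3 CPM in cKO (log2 difference -0.46 ± 0.11, adjusted p = 0.117). *Serping1*, the C1 inhibitor, had a log2 difference of -0.46 ± 0.18 (adjusted p = 0.315). Among activators and clearance receptors 5 of 12 genes stood at an unadjusted p under 0.05, 2 higher and 3 lower (5.97% and 8.55% of all genes). Those with the largest estimates were *Spock3* (-0.84 ± 0.29, groups overlapping), the proprotein convertase *Pcsk6* (-0.41 ± 0.11) and *Mrc2*, a receptor that takes up collagen fragments (0.31 ± 0.10). *Adam8* and *Adam23* (0.75 ± 0.22 and 0.66 ± 0.21) were the members of the ADAM list at that level, and *Adamtsl4* and *Adamtsl1* (-0.31 ± 0.10 and 0.16 ± 0.06) those of the ADAMTS-like list. None of these passed in edgeR, with adjusted p between 0.117 and 0.315, and *Plau*, *Pcsk6*, *Mrc2*, *Adam8* and *Adam23* passed in DESeq2.

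Genes known to induce MMP transcription showed small differences. Of 19 listed, 16 were tested, and 12 had a higher estimate in cKO, beside 49.4% of all genes. On the higher side 2 stood at an unadjusted p under 0.05 (5.97% of all genes). These were the AP-1 subunits *Fosl2* (0.20 ± 0.06, adjusted p = 0.192) and *Jund* (0.19 ± 0.06, adjusted p = 0.186). The cytokine genes *Tnf* and *Il1b* had log2 differences of 0.0078 ± 0.35 and 0.15 ± 0.63, too wide to show a change of either sign. The chromosome 9 MMPs whose windows carried AP-1 letters, *Mmp3*, *Mmp10*, *Mmp12* and *Mmp13*, were either untested or overlapped between the groups.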

How the data were processed

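RNA sequencing (BGI) of injured Achilles tendon from 3 mice of the *LysM-Cre; Ampkα1 fl/fl* genotype and 3 littermate controls was re-analysed, with groups and replicate numbers as labelled. For 65053 RefSeq transcripts the authors deposited an estimated count, a raw and often fractional number of reads, and a TPM value, corrected for transcript length. The submitters' processing notes name GRCm38.p6. The aligner, counting tool and strand setting are not given in the sources used here. The other 20 columns (FPKM, normalized counts, group averages) were not used. Counts were summed per gene and rounded. Symbols were matched by NCBI Gene identifier for 18049 of 18099 genes (99.72%).

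Genes kept by filterByExpr (14261) were tested with edgeR 4.0.16 in R 4.3.3 (TMM, glmQLFTest, group only, Benjamini-Hochberg over all genes, threshold 0.05). CPM are TMM-scaled, and exact permutation tests used log2(CPM + 0.5). Alternatives were DESeq2 1.42.0, RLE and upper-quartile scaling, no or a stricter count filter, blocking on the replicate number, a skeletal muscle score in the model and leaving out each library. On simulated counts 130 of 200 genes changed by 1 on the log2 scale were recovered. Smaller changes, which most members had by estimate, were not simulated. Deviations of same-numbered control and cKO libraries correlated at 0.18, 0.12 and 0.31, each over 0.1. The replicate number was used as a block in an alternative fit only, and the main fit was unpaired. Control 1 correlated best with cKO 2 (0.50), control 2 with cKO 3 (0.13), and only control 3 with its own number. The numbers therefore do not identify pairs. p-values measure the spread between these 6 libraries.

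The members and lists were chosen with earlier results of these data known. Values by library are given for members with an unadjusted p under 0.05, the 10 highest in TPM, the TIMPs and the largest estimate of each subfamily, and from each other list for at most 3 genes with an unadjusted p under 0.05, the largest estimates first.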

Additional observations from a re-analysis of the deposited data

How the results depend on the processing

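The 22 members described by library kept the direction of their difference and their side of the threshold in 254 of 285 recomputed values, and passed only under the alternative in 14 more. Under DESeq2 9 members and 20 other pathway genes were called (685 of all genes), against 1, 4 and 128 in edgeR. Blocking on the replicate number, which is not known to pair the libraries, gave 1 and 3 calls among 47 genes called in all. *Acan* and *Dcn* lost the call and *Mcpt4* gained it, and no other call of a member or pathway gene changed. With each library left out in turn the calls ranged from 0 to 7 members and from 0 to 6 other pathway genes, and from 8 to 276 over all genes; the highest counts were without cKO 2. The count of members at an unadjusted p under 0.05 lay between 11 and 17 throughout. The skeletal muscle score as covariate left 74 genes called, *Adamts19* among them and *Dcn* not, and upper-quartile scaling lost the call of *Cma1*. The muscle score moved the median log2 difference of the gelatinases to 0.36, the collagenases to 2.23, the stromelysins to 0.30, the membrane-type MMPs to 0.13 and the TIMPs to 0.29, and reversed *Mmp9* (0.38), *Adamts1* (0.078), *Adamts2* (0.040) and *Timp1* (0.32) among the members described by library, and also *Mmp13* (1.09), *Mmp3* (0.17), *Mmp17* (0.13), *Mmp25* (0.28), *Mmp19* (0.25) and *Adamts16* (0.064); the cause was not tested. A mean CPM of at least 1 moved the collagenases to -0.038, because *Mmp8* was no longer tested. With libraries left out the medians ranged from -0.41 to 0.063 for the other MMPs, from -0.38 to -0.19 for the proteoglycan-cleaving ADAMTS and from 0.10 to 0.20 for the TIMPs. The differences of *Mmp9* (-1.02 to 0.037), *Adamts2* (-0.054 to 0.058), *Adamts10* (-0.091 to 0.0037) and *Timp1* (-0.28 to 0.087) changed sign in these fits. That of *Adamts19* stayed between -1.12 and -0.90 while its call was lost in 5 of 6. Genes such as *Mmp8*, *Timp4*, *Mmp10*, *Mmp24* and *Mmp27* rest on too few reads for differences of less than several-fold to be detectable.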

Other observations

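The counts by transcript are given for a few members. The 2 main transcripts of *Adamts15*, with 53.5% and 41.7% of its reads, were each lower in every cKO library than in any control. For the first the nearest values were 657 reads in control 1 and 650 in cKO 1. Another transcript held 352 reads in cKO 2 and 0 in every other library, so how reads were divided among transcripts in cKO 2 is uncertain. The main transcript of *Adamts9* carried 95.1% of its reads (1160, 999 and 1241 in controls, 837, 887 and 966 in cKO) and that of *Mmp11* 94.7% (965, 1010 and 957 against 1571, 1203 and 1521), so the differences of these genes were those of a single annotated transcript. Reads of *Timp1* were divided between a pair of transcripts at 60.2% and 39.2%, and both overlapped between the groups. For *Mmp28*, whose 3 transcripts overlapped between the groups one by one, only the sum separated them.

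Some members are close neighbours in the genome. *Adamts1* and *Adamts5* both lie on chromosome 16 (chr16:85793827-85803113 and chr16:85858157-85901125), and *Adamts15* and *Adamts8* on chromosome 9 (chr9:30899155-30922452 and chr9:30942562-30963838). In neither pair did both genes separate the groups. *Adamts5* and *Adamts15* did, and their neighbours overlapped.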
